A study of Mus musculus with 12 samples.

Results

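The 3 D-type cyclins, their 2 partner kinases and 5 inhibitors of the cyclin D step were examined in mouse cochlear glial cells grown as spheres or differentiated in 3 media. The members were the rows of the deposited expression table whose gene names were Ccnd1, Ccnd2, Ccnd3, Cdk4, Cdk6, Cdkn1b, Cdkn2a, Cdkn2b, Cdkn2c and Cdkn2d. These were 10 of 55487 genes, and all 10 were among the 16016 genes that reached 1 TPM (transcript abundance corrected for transcript length and library size) in at least 3 of 12 libraries. Cdkn2a, Cdkn2b, Cdkn2c and Cdkn2d make up the INK4 family, while Cdkn1b, which encodes p27, belongs to the CIP/KIP family.

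D-type cyclins link growth factor signals to the cell cycle: they bind CDK4 or CDK6, and the active kinase phosphorylates the retinoblastoma protein so that E2F factors can switch on genes for DNA replication. INK4 proteins bind CDK4 and CDK6 and keep them from pairing with cyclin D, whereas p27 binds cyclin-CDK complexes and chiefly restrains CDK2. In the developing cochlea, p27 is known for holding progenitors and supporting cells out of the cycle, and the INK4 locus that holds Cdkn2a and Cdkn2b is known as a silenced region that opens with culture and age.

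All cells came from the modiolus of postnatal day 4 mice on a mixed C57Bl6 and FVB/N background, with 3 libraries per group that the labels call biological replicates. Spheres were kept in suspension with EGF at 20 ng/ml, bFGF at 10 ng/ml, IGF at 50 ng/ml and heparan sulfate at 50 ng/ml. SCDM is a differentiation medium that holds the neurotrophins NT3 and BDNF, both at 50 ng/ml. SCDM/FGF is the same medium with bFGF added at 100 ng/ml. FIBCL is Neurobasal medium with bFGF at 100 ng/ml (the labels also list 50 ng/ml), Forskolin at 20 μM, ISX9 at 20 μM, I-BET at 1 μM, CHIR99021 at 10 μM and LIF at 1000 U/ml, which respectively raise cAMP, promote neuronal genes, block BET bromodomain proteins, inhibit GSK3 and activate STAT3. The labels give 14 days of differentiation. Tissue of several mice of both sexes was pooled for each dissection. Base medium, growth factors and molecules differed together between SCDM and FIBCL, so their parts cannot be told apart.

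The labels call the spheres cochlear glial and the other 3 groups induced neurons. The 10 neuronal markers summed to 17.1 to 18.2 TPM in spheres, 19.3 to 22.5 in SCDM, 20.4 to 27.6 in SCDM/FGF and 498 to 518 in FIBCL. Rbfox3, a marker of mature neurons, was low in all groups. It averaged 0.949 TPM in FIBCL, 0.017 in spheres and 0.016 in SCDM, and was listed at 0 in every SCDM/FGF library. The 10 glial markers summed to 599 to 625 TPM in spheres, 204 to 237 in SCDM, 205 to 230 in SCDM/FGF and 17.4 to 23.8 in FIBCL. Markers of mesenchyme and fibroblasts were more abundant than glial markers in all 4 groups, at 2659 to 2706 TPM in spheres, 5830 to 6048 in SCDM and 5355 to 5718 in SCDM/FGF, against 198 to 212 in FIBCL. Within this list Twist1 (110 TPM in FIBCL, at most 50.6 in the other groups) was highest in FIBCL, on TPM as deposited too. Macrophage markers summed to 142 to 183 TPM in spheres, 1811 to 2022 in SCDM, 2022 to 2193 in SCDM/FGF and 169 to 199 in FIBCL, where Cd68 made up 165 of the sum on average and 4 of the 10 markers reached 1 TPM. Of 6 endothelial markers, Emcn and Cdh5 were highest in SCDM/FGF and made up nearly all of the sum of 265 to 303 TPM there, while Pecam1 and Cldn5 were highest in spheres, Tek in SCDM and Kdr in FIBCL. Markers of several cell types thus moved with the group, their part in the differences between members was not tested, and in these bulk libraries fewer cells of a type and less RNA per cell cannot be told apart.

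The promoter stretches that follow are those of the INK4 genes of the Cdkn2a/Cdkn2b locus, both higher in FIBCL and SCDM/FGF than in SCDM, and of Cdk4, which was lowest in FIBCL. They come from RefSeq (GRCm38.p6), run in the direction of transcription, stop where the annotated exon begins, and carry in capitals the matches to 5 motifs that were searched on both strands over 250 bases. These were CRE (TGACGTCA, bound by CREB, which cAMP activates), E-box (CACGTG, bound by Myc), TCF/LEF (CTTTGAT), E2F (TTTNNCGC) and STAT (TTCNNNGAA). A match is a run of letters and not a measured site. Cdkn1b, Cdkn2c and Ccnd3 were also lowest in FIBCL, but their windows held no match and are not printed.

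Cdkn2b, chr4:89311040-89311282, minus strand, CRE in capitals: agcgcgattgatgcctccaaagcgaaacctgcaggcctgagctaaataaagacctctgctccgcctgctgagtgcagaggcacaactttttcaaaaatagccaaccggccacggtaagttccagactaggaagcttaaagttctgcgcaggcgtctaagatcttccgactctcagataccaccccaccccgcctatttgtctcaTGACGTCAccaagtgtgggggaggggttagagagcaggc
Cdkn2a, Arf start, chr4:89294654-89294869, minus strand, E2F in capitals: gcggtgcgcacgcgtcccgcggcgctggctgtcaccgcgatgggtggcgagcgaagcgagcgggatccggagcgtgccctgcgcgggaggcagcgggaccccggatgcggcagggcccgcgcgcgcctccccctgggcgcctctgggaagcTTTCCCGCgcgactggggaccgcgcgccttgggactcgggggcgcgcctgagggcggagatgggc
Cdkn2a, Ink4a start, chr4:89282193-89282442, minus strand, E2F in capitals: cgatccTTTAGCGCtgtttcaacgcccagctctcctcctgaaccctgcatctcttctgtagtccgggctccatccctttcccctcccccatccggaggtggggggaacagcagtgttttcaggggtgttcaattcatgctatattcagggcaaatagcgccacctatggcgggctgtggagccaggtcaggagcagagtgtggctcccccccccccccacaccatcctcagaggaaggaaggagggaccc
Cdk4, chr10:127063285-127063533, plus strand, 4 E-boxes and 1 TCF/LEF match in capitals: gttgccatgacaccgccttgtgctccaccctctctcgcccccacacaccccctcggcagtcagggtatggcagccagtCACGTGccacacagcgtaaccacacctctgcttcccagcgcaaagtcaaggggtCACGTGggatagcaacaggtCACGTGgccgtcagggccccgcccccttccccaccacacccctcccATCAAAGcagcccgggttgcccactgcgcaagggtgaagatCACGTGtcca

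The CRE of Cdkn2b lay at positions -46 to -39 from the start site, and 1.55% of 32851 promoter windows held one. Cdk4 held E-boxes that began at -172, -118, -98 and -11, where 6.02% of windows held at least 1 E-box and 0.0213%, or 7 windows, held at least 4. Its TCF/LEF match, on the minus strand, began at -52 (3.21% of windows). The E2F letters began at -99 before the Arf start of Cdkn2a, at -244 before its Ink4a start and at -198 in the window of Cdk6, and 4.28% of windows held them. Cdk6 also held an E-box at -220. No member window held the STAT letters, which 7.02% of windows held. Windows were found for 8 of the 10 members, with none for Ccnd1 and Ccnd2. Of the 11 windows, 6 had no match to any of the motifs (those of Cdkn1b, Cdkn2c, Cdkn2d and Ccnd3), and no matches overlapped each other. Among these, a window of Cdkn2c lay wholly in annotated exons of the gene (250 bases), and its start was not found in an annotated transcript. The Cdkn2d window held 198 exonic bases.

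Levels are given as TPM rescaled between libraries, which is per transcript length and so can be set side by side between genes. Differences are log2 fold changes of (scaled TPM + 1) with a standard error (SE) from limma over all 12 libraries, a scale that understates the change of low genes, and a member was called changed at an adjusted p under 0.05 (Benjamini-Hochberg over all genes tested). In FIBCL against SCDM, 5 members rose and 5 fell, where 71.7% of all tested genes passed (32.7% higher and 39% lower). Against SCDM/FGF, 3 members rose and 7 fell in FIBCL, where 70.7% of all genes passed (32.5% higher and 38.2% lower). Against spheres 4 rose, 5 fell and 1 did not pass in FIBCL, where 71.6% of all genes passed (32.9% higher and 38.7% lower).

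SCDM/FGF against SCDM gave 7 members higher and 3 lower, where 43.1% of all genes passed (21.8% higher and 21.3% lower). SCDM against spheres gave 5 higher, 2 lower and 3 that did not pass, where 50.3% of all genes passed (24.5% higher and 25.8% lower). SCDM/FGF against spheres gave 7 higher, 2 lower and 1 that did not pass, where 50.4% of all genes passed (25% higher and 25.4% lower). When a change of at least 1 on the log2 scale was required as well, 4 members passed in FIBCL against SCDM (29.3% of all genes), 4 against SCDM/FGF (27.8%) and 5 against spheres (28.1%). By the same rule 2 passed in SCDM against spheres (12.4%), 3 in SCDM/FGF against spheres (12.1%) and 3 in SCDM/FGF against SCDM (9.77%). The libraries of both groups did not overlap for 10 members in FIBCL against SCDM (74.7% of all genes), 9 against SCDM/FGF (72.9%) and 10 against spheres (75%), and for 8 in SCDM against spheres (58.6%), 9 in SCDM/FGF against spheres (57%) and 10 in SCDM/FGF against SCDM (51.6%). With so many genes passing in every comparison, a pass by itself says little about the members. The comparisons share groups and are not independent of each other.

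**Figure D1:**
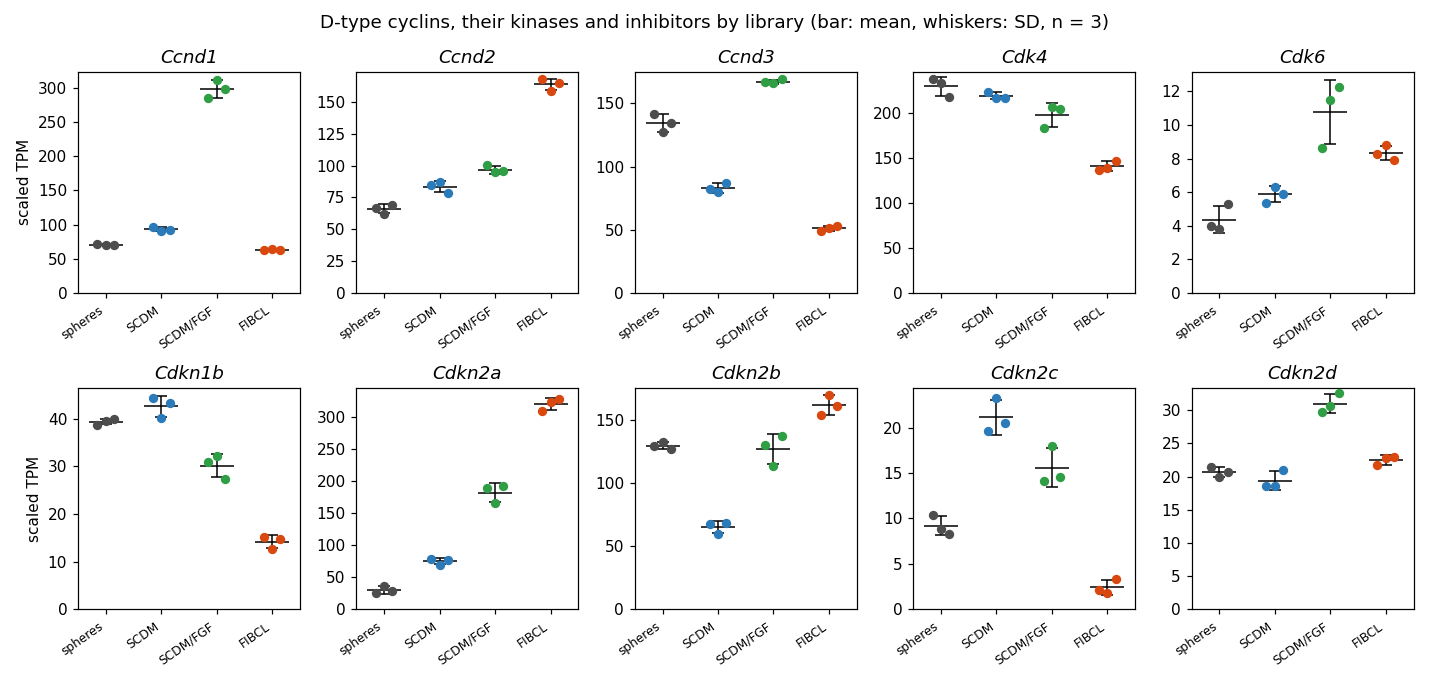
Scaled TPM (vertical axes, each starting at 0) of the 10 members in the 4 groups. Points are libraries, bars are means and whiskers SD (n = 3); Ccnd1 is highest in SCDM/FGF at 285 to 311, and Cdkn2a climbs from 25.6 to 36.8 in spheres to 309 to 327 in FIBCL.

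**Figure D2:**
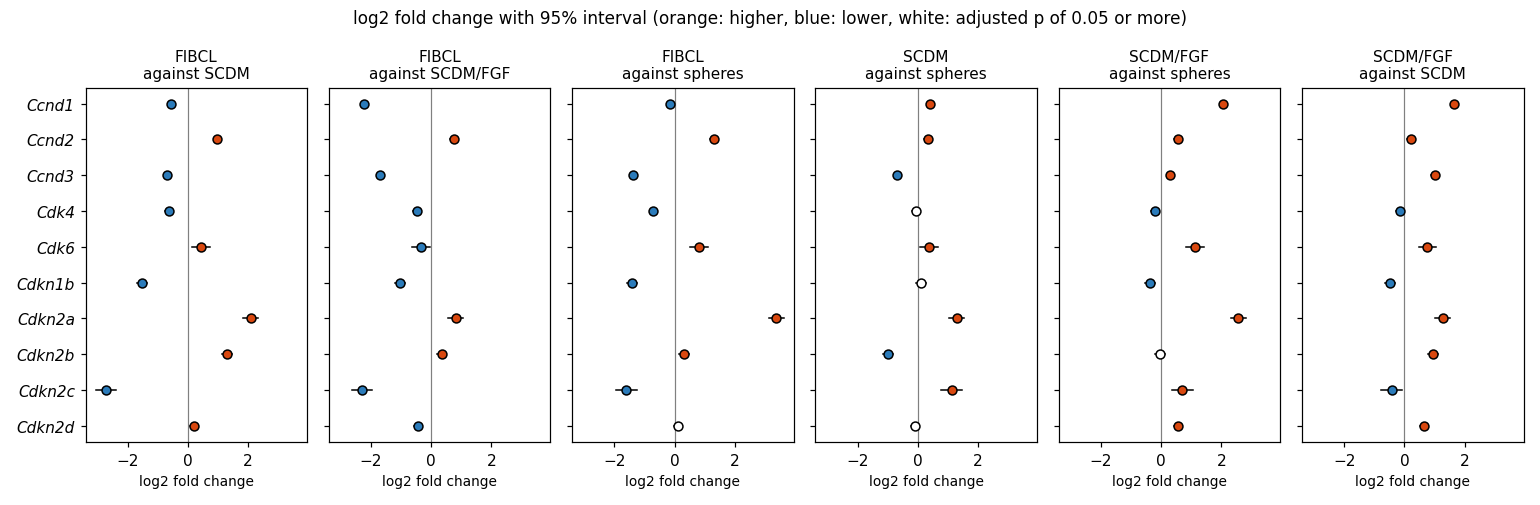
Log2 fold changes (horizontal axes) of the 10 members in the 6 comparisons, with 95% intervals as lines. Orange points passed as higher, blue as lower and white did not pass; Cdkn2a is orange in every panel and Cdkn2c has the lowest value in FIBCL against SCDM, at -2.72.

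The balance of directions depended on the scaling between libraries, and FIBCL libraries listed a smaller summed TPM (899295 to 911076) than the other libraries (982067 to 994845). TPM of all genes should add to the same total in every library, so rows may be missing from the table, more of them in FIBCL, and this doubt touches every FIBCL level. Rescaling raised log2 differences by about 0.40 in FIBCL against SCDM, 0.32 against SCDM/FGF and 0.55 against spheres, and by 0.14 in SCDM against spheres, 0.23 in SCDM/FGF against spheres and 0.085 in SCDM/FGF against SCDM. In FIBCL against SCDM the median gene stood at -0.07 after rescaling and at -0.40 on the values as deposited (log2). Over all genes, 5234 rose and 6246 fell in FIBCL against SCDM after rescaling, against 3280 and 8922 as deposited, and the members split 5 to 5 and 3 to 6. As deposited, 2 members rose and 7 fell in FIBCL against SCDM/FGF (all genes 3337 and 8199, against 5205 and 6122 rescaled), and 3 rose and 7 fell against spheres (2666 and 9821, against 5276 and 6194). In SCDM against spheres 4 rose and 4 fell as deposited (2805 and 5688, against 3918 and 4136), in SCDM/FGF against spheres 6 rose and 3 fell (2529 and 6871, against 4005 and 4070), and in SCDM/FGF against SCDM 6 rose and 3 fell (2738 and 4261, against 3491 and 3419).

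Of the D-type cyclins, Ccnd1 and Ccnd3 were highest in SCDM/FGF and Ccnd2 was highest in FIBCL. Ccnd1 (ENSMUSG00000070348; GRCm38 chr7:144929931-144939925, minus strand) encodes cyclin D1, the D-type cyclin best known as a target of growth factor and Wnt signalling. It was at 71.2, 70.7 and 69.5 TPM in spheres, 96.8, 90.9 and 92.6 under SCDM, 285, 311 and 298 under SCDM/FGF and 62.8, 64.0 and 63.0 under FIBCL. The SCDM/FGF libraries stood apart from all others, and no libraries of 2 groups overlapped. Its level in SCDM/FGF was 3.19-fold that in SCDM (log2 fold change 1.66, SE 0.039, adjusted p = 1.08e-10) and 4.71-fold that in FIBCL (-2.22 for FIBCL against SCDM/FGF, adjusted p = 1.79e-12). The FIBCL and SCDM/FGF media both contained bFGF but differed in base medium, neurotrophins and added molecules, whose parts cannot be told apart. FIBCL was lowest, below SCDM by 1.48-fold (-0.56, adjusted p = 1.5e-07) and below spheres by 1.11-fold (-0.15, adjusted p = 0.00451). As deposited these differences were larger, at -0.95 and -0.69.

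Ccnd2 (ENSMUSG00000000184; chr6:127125162-127152193, minus strand) encodes cyclin D2, which is prominent in neural progenitors. Its libraries read 66.4, 62.2 and 69.2 TPM in spheres, 84.6, 87.0 and 78.4 under SCDM, 100.2, 94.6 and 95.4 under SCDM/FGF and 168, 159 and 165 under FIBCL. Here the FIBCL libraries were the high ones, and the other groups kept the order SCDM/FGF, SCDM, spheres without overlap. Ccnd2 was the D-type cyclin that rose in FIBCL, by 1.96-fold over SCDM (0.97, SE 0.051, adjusted p = 1.2e-08), 1.69-fold over SCDM/FGF (0.75, adjusted p = 1.12e-07) and 2.48-fold over spheres (1.30, adjusted p = 1.03e-09). As deposited the rises were smaller and still passed, at 0.57, 0.44 and 0.76. The step from SCDM to SCDM/FGF was 1.16-fold (0.21, adjusted p = 0.00569), and it did not pass on TPM as deposited (0.13, adjusted p = 0.151).

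Ccnd3 (ENSMUSG00000034165; chr17:47505051-47599691, plus strand) encodes cyclin D3. It was at 142, 128 and 135 TPM in spheres, 82.4, 79.6 and 87.3 under SCDM, 167, 166 and 169 under SCDM/FGF and 48.9, 51.2 and 53 under FIBCL. The order was SCDM/FGF, spheres, SCDM, FIBCL, with no overlap between groups. FIBCL was 1.63-fold lower than SCDM (-0.69, SE 0.049, adjusted p = 1.45e-07; -1.09 as deposited) and 3.28-fold lower than SCDM/FGF (-1.69, adjusted p = 7.92e-11), and SCDM/FGF was 2.01-fold higher than SCDM (1.00, adjusted p = 2.44e-08). The difference between SCDM/FGF and spheres (0.31, adjusted p = 0.000285) did not pass as deposited (0.08, adjusted p = 0.203).

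Both the summed level of the 3 cyclins and its makeup were compared between groups. The sum was 271 ± 9.61 TPM in spheres, 260 ± 3.49 under SCDM, 562 ± 9.73 under SCDM/FGF and 278 ± 3.59 under FIBCL (SD, n = 3). Ccnd3 was the leading cyclin of spheres with 49.7% ± 0.953 of the sum, Ccnd1 led in SCDM/FGF with 53.01% ± 1.42, and Ccnd2 led in FIBCL with 58.9% ± 1.06. In SCDM the shares were close to even, at 35.9% Ccnd1, 32.1% Ccnd2 and 32.0% Ccnd3. The Ccnd1 share was lower in FIBCL than in SCDM by 13.2 points (22.8% against 35.9%), and every FIBCL library lay below every SCDM library. The two-sided exact permutation test gave p = 0.1 (adjusted 0.1 over the 3 shares tested), the smallest that 3 against 3 libraries can give. These shares do not depend on the scaling between libraries, but the sums do: as deposited they were 318 TPM for spheres, 275 for SCDM, 561 for SCDM/FGF and 223 for FIBCL, so that FIBCL lay below SCDM.

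**Figure D3:**
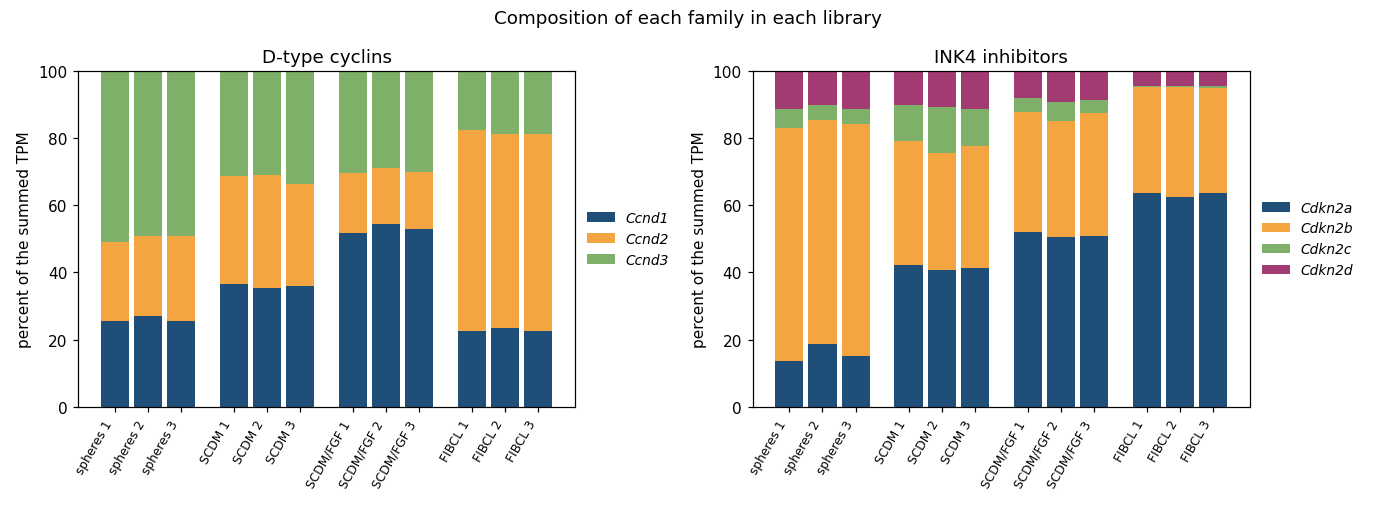
Composition of the D-type cyclins (left) and INK4 inhibitors (right) in each of the 12 libraries, as percent of the family's summed TPM (vertical axis, 0 to 100). Ccnd2 takes 57.9 to 60.03% of the cyclin sum in FIBCL and 16.5 to 18.1% in SCDM/FGF, and Cdkn2b takes 66.9 to 69.2% of the INK4 sum in spheres.

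The kinase side was carried by Cdk4 in all 4 groups. Cdk4 (ENSMUSG00000006728; chr10:127063534-127067920, plus strand), whose promoter with its 4 E-boxes is printed above, was at 238, 233 and 217 TPM in spheres, 223, 217 and 217 under SCDM, 183, 206 and 204 under SCDM/FGF and 136, 139 and 147 under FIBCL. The FIBCL libraries were below all others, and spheres and SCDM overlapped. FIBCL was 1.56-fold lower than SCDM (-0.64, SE 0.054, adjusted p = 6.72e-07), 1.41-fold lower than SCDM/FGF (-0.49, adjusted p = 7.21e-06) and 1.63-fold lower than spheres (-0.70, adjusted p = 3.1e-07). As deposited these were -1.03, -0.80 and -1.24. The difference between SCDM and spheres did not pass (-0.07, 95% interval -0.18 to 0.05, adjusted p = 0.338), but did on TPM as deposited (-0.21, adjusted p = 0.00192). The lower value in SCDM/FGF than in SCDM (-0.15, adjusted p = 0.0449) is a weak call that was lost in 8 of 15 alternatives, among them each of the SCDM libraries and SCDM/FGF replicate 1 left out in turn (lowest size -0.09, adjusted p = 0.158), while as deposited it was -0.23 (adjusted p = 0.00122).

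Cdk6 (ENSMUSG00000040274; chr5:3341485-3531008, plus strand) encodes the other cyclin D kinase and had the lowest mean of all members except in FIBCL, where Cdkn2c was lower. Its libraries read 3.98, 3.83 and 5.28 TPM in spheres, 5.38, 6.33 and 5.91 under SCDM, 8.62, 11.5 and 12.3 under SCDM/FGF and 8.26, 8.78 and 7.94 under FIBCL. Levels were higher in SCDM/FGF and FIBCL than in spheres and SCDM, and 1 SCDM/FGF library overlapped the FIBCL range. The rise in SCDM/FGF over SCDM was 1.84-fold (0.77, SE 0.13, adjusted p = 0.000703) and that in FIBCL over spheres 1.91-fold (0.81, adjusted p = 0.000217), the latter 0.34 as deposited (adjusted p = 0.0441). FIBCL exceeded SCDM by 1.42-fold (0.44, adjusted p = 0.0117), and that call was lost on TPM as deposited (0.09, adjusted p = 0.575). The lower value in FIBCL than in SCDM/FGF (-0.33, adjusted p = 0.048; -0.60 as deposited, adjusted p = 0.00218) was lost in 9 of 15 alternatives and that between SCDM and spheres (0.37, adjusted p = 0.0416) in 7 of 15, including with SCDM/FGF replicate 2 or 3 or any FIBCL library left out in the former and spheres replicate 1 or 2 or SCDM replicate 2 or 3 in the latter.

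Cdk4 made up 98.1% ± 0.430 of the summed kinase TPM in spheres, 97.4% ± 0.245 under SCDM, 94.9% ± 0.588 under SCDM/FGF and 94.4% ± 0.430 under FIBCL (SD, n = 3). The share was 2.98 points lower in FIBCL than in SCDM, with no overlap and the smallest exact permutation p that the design allows (p = 0.1, two-sided, adjusted 0.1). The summed level of both kinases was 234 TPM in spheres, 225 under SCDM, 209 under SCDM/FGF and 149 under FIBCL. As deposited it was 274 TPM for spheres, 238 for SCDM, 208 for SCDM/FGF and 119 for FIBCL.

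The INK4 genes moved in opposite directions within the family. Cdkn2a (ENSMUSG00000044303; chr4:89274471-89294653, minus strand) has an Ink4a transcript for p16, which inhibits CDK4 and CDK6, and an Arf transcript for p19, which frees p53 by binding MDM2. It rose from 25.6, 36.8 and 28.0 TPM in spheres to 77.4, 69.6 and 76.8 under SCDM, 188, 166 and 192 under SCDM/FGF and 309, 323 and 327 under FIBCL. The groups formed 4 separate steps. FIBCL was 4.29-fold above SCDM (2.09, SE 0.11, adjusted p = 1.1e-08), 1.76-fold above SCDM/FGF (0.81, adjusted p = 4.06e-05; 0.50 as deposited, adjusted p = 0.000891) and 10.6-fold above spheres (3.38, adjusted p = 2.06e-10), and SCDM/FGF was 2.44-fold above SCDM (1.27, adjusted p = 2.69e-06). The gene-level value does not separate the 2 products: their transcripts, of 852 bases (Ink4a) and 895 bases (Arf), share 575 bases and start 12461 bases apart.

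Cdkn2b (ENSMUSG00000073802; chr4:89306299-89311039, minus strand) encodes p15, an inhibitor known for its induction by TGF-beta, and lies 11645 bases from Cdkn2a. It was at 129, 133 and 127 TPM in spheres, 67.4, 59.6 and 67.9 under SCDM, 129.8, 113.6 and 136.9 under SCDM/FGF and 154, 170 and 161 under FIBCL. SCDM was the low group here, spheres and SCDM/FGF overlapped, and FIBCL lay above all. FIBCL was 2.48-fold above SCDM (1.30, SE 0.071, adjusted p = 1.6e-08), while SCDM was 1.99-fold below spheres (-0.99, adjusted p = 5.46e-07) and SCDM/FGF 1.95-fold above SCDM (0.95, adjusted p = 8.25e-07). The difference between SCDM/FGF and spheres was -0.03 (95% interval -0.19 to 0.12, adjusted p = 0.728), and as deposited it passed at -0.26 (adjusted p = 0.00862). The smaller rises of FIBCL over SCDM/FGF (0.35, adjusted p = 0.00102) and over spheres (0.32, adjusted p = 0.00199) depend on the scaling, since they became 0.04 (adjusted p = 0.678) and -0.23 (adjusted p = 0.0128) as deposited.

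The neighbours of the locus were examined in the same way. Mtap, 93389 bases away, was at 33.3 TPM in spheres, 34.6 under SCDM, 40.5 under SCDM/FGF and 42.6 under FIBCL, and it rose by 0.29 in FIBCL against SCDM (adjusted p = 0.00029), which became -0.097 on TPM as deposited (adjusted p = 0.151). Dmrta1, 368396 bases away on the other side, was at 1.28 TPM in spheres, 0.438 under SCDM, 4.17 under SCDM/FGF and 1.33 under FIBCL, with a 3.03-fold higher mean in FIBCL than in SCDM (0.69, adjusted p = 0.000454).

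Cdkn2c (ENSMUSG00000028551; chr4:109660876-109667189, minus strand) encodes p18, an INK4 protein expressed in dividing neural progenitors. It was at 10.4, 8.87 and 8.31 TPM in spheres, 19.6, 23.3 and 20.5 under SCDM, 14.2, 18.0 and 14.6 under SCDM/FGF and 2.11, 1.80 and 3.30 under FIBCL. The FIBCL libraries were below all others, and SCDM was highest. Cdkn2c fell 8.80-fold in FIBCL against SCDM (-2.72, SE 0.16, adjusted p = 2.19e-08), 6.50-fold against SCDM/FGF (-2.30, adjusted p = 1.01e-07) and 3.82-fold against spheres (-1.60, adjusted p = 2.47e-06). SCDM was 2.30-fold above spheres (1.12, adjusted p = 1e-04). The lower value in SCDM/FGF than in SCDM (-0.42, adjusted p = 0.0489) was lost in 10 of 15 alternatives, among them each SCDM library and SCDM/FGF replicate 1 or 3 left out in turn (adjusted p up to 0.149).

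Cdkn2d (ENSMUSG00000096472; chr9:21288410-21291407, minus strand) encodes p19Ink4d, the INK4 protein best known for keeping postmitotic neurons and cochlear sensory cells out of the cycle. It was the steadiest INK4 gene, with 21.4, 19.9 and 20.7 TPM in spheres, 18.6, 18.6 and 21.0 under SCDM, 29.8, 30.6 and 32.6 under SCDM/FGF and 21.7, 22.7 and 23.01 under FIBCL. The SCDM/FGF libraries stood above the rest, and spheres and SCDM overlapped. SCDM/FGF was 1.60-fold above SCDM (0.65, SE 0.061, adjusted p = 5.09e-06) and 1.38-fold above FIBCL (-0.45 for FIBCL against SCDM/FGF, adjusted p = 4.43e-05, and -0.75 as deposited). The value in FIBCL exceeded that in SCDM by 0.21 (adjusted p = 0.00977), and the sign turned on TPM as deposited (-0.18, adjusted p = 0.0266). FIBCL and spheres differed by 0.11 (95% interval -0.02 to 0.25, adjusted p = 0.114), and SCDM and spheres by -0.09 (95% interval -0.23 to 0.04, adjusted p = 0.235). As deposited both passed as lower, at -0.41 (adjusted p = 0.000108) and -0.23 (adjusted p = 0.0101).

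The INK4 sum was 189 ± 7.63 TPM in spheres, 180 ± 7.96 under SCDM, 355 ± 24.7 under SCDM/FGF and 506 ± 16.9 under FIBCL (SD, n = 3). As deposited the sum was 222 TPM for spheres, 191 for SCDM, 355 for SCDM/FGF and 406 for FIBCL. Cdkn2b led in spheres with 68.4% of it, Cdkn2a led in the other 3 groups with 41.4% under SCDM, 51.2% under SCDM/FGF and 63.2% under FIBCL, and Cdkn2d held from 4.44% in FIBCL to 10.9% in spheres. The Cdkn2c share was 11.8% ± 1.59 in SCDM and 0.474% ± 0.151 in FIBCL, a difference of -11.3 points without overlap (exact permutation p = 0.1, two-sided, the smallest possible, adjusted 0.1). INK4 TPM per D-type cyclin TPM was 0.699 ± 0.052 in spheres, 0.693 ± 0.028 under SCDM, 0.632 ± 0.051 under SCDM/FGF and 1.82 ± 0.074 under FIBCL. The ratio was thus alike in the first 3 groups and higher in every FIBCL library (1.74 to 1.89) than in any other (at most 0.760). Per kinase TPM the ratio was 0.811 in spheres, 0.801 under SCDM, 1.71 under SCDM/FGF and 3.40 under FIBCL. These ratios are a description and were not tested, and the INK4 sum counts all of Cdkn2a, of which an unknown part is Arf, no inhibitor of CDK4 or CDK6.

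Cdkn1b (ENSMUSG00000003031; chr6:134920401-134925513, plus strand), the gene of p27, was at 38.7, 39.6 and 39.9 TPM in spheres, 44.4, 40.1 and 43.4 under SCDM, 31.0, 32.2 and 27.4 under SCDM/FGF and 15.2, 12.6 and 14.7 under FIBCL. The FIBCL libraries were lowest without overlap, and SCDM and spheres were close. Cdkn1b fell 3.01-fold in FIBCL against SCDM (-1.53, SE 0.078, adjusted p = 8.35e-09), 2.13-fold against SCDM/FGF (-1.04, adjusted p = 2.49e-07) and 2.78-fold against spheres (-1.42, adjusted p = 1.73e-08). It was also lower in SCDM/FGF than in SCDM (-0.49, adjusted p = 0.000374). SCDM and spheres differed by 0.11 (95% interval -0.06 to 0.28, adjusted p = 0.274).

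The other CIP/KIP genes took other courses. Cdkn1a, which encodes the p53 target p21, rose from 124 ± 5.14 TPM in SCDM to 878 ± 21.98 in FIBCL (2.82, adjusted p = 5.27e-12), with 212 in spheres and 259 in SCDM/FGF. Cdkn1c, which encodes p57, was at 58.8 TPM in spheres and 12.4 under SCDM, 15.2 under SCDM/FGF and 13.7 under FIBCL, and it did not pass between FIBCL and SCDM (0.14, adjusted p = 0.507, and -0.23 as deposited, adjusted p = 0.256).

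Genes downstream of the cyclin D kinases were counted by list in FIBCL against SCDM, where 32.7% of all genes rose, 39% fell and the median of all genes was -0.07. Of 12 tested pocket proteins, E2F and DP factors, 2 rose and 8 fell (median -0.34). Rb1, the retinoblastoma gene, was 19.4 TPM against 10.9 (0.78, adjusted p = 5.41e-05; 0.40 as deposited). The repressor E2Fs E2f8 (0.457 against 2.26 TPM, -1.16) and E2f7 (0.239 against 1.68 TPM, -1.13) fell, and so did Tfdp1 (-1.10), the partner of E2F. Of 10 genes for cyclin E and A, CDK2, its activating kinase and CIP/KIP inhibitors, 1 rose and 6 fell (median -1.06), with Ccna2 at 1.05 against 23.6 TPM (-3.59) and Ccne2 at 0.536 against 5.61 (-2.08) beside the rise of Cdkn1a. Of 20 S phase genes 1 rose and 18 fell (median -1.24), led by the replication helicase genes Mcm5 (-3.37), Mcm3 (-3.32) and Mcm6 (-2.90). Of 20 G2 and M phase genes 0 rose and 20 fell (median -3.51), led by Cdk1 (0.681 against 71.2 TPM, -5.45), Top2a (-5.30) and Mki67 (-4.25).

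The proliferation genes also differed between spheres and the SCDM media. The 20 G2 and M phase genes summed to 143 to 150 TPM in spheres, 379 to 415 in SCDM, 271 to 384 in SCDM/FGF and 13.2 to 15.5 in FIBCL, so that SCDM and SCDM/FGF overlapped. All 20 were higher in SCDM and in SCDM/FGF than in spheres, and of the 20 S phase genes 17 were higher in SCDM and 20 in SCDM/FGF (of all genes, 24.5% and 25% were higher). As deposited, these counts were 20 and 18 for G2 and M phase and 12 and 18 for S phase. Between SCDM/FGF and SCDM, 8 S phase genes were higher and 1 lower, while 8 G2 and M phase genes were lower and 0 higher (of all genes, 21.8% were higher and 21.3% lower). As deposited, 6 S phase genes were higher and 1 lower, and 9 G2 and M phase genes were lower and 0 higher. Cdkn2c had the same order of group means as this sum (SCDM, SCDM/FGF, spheres, FIBCL). Within spheres, SCDM and FIBCL the library with the highest sum was not the one with the highest Cdkn2c, whereas in SCDM/FGF it was (replicate 2). Cdkn2a and Ccnd2 were highest in the FIBCL libraries, where the sum was lowest.

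**Figure D4:**
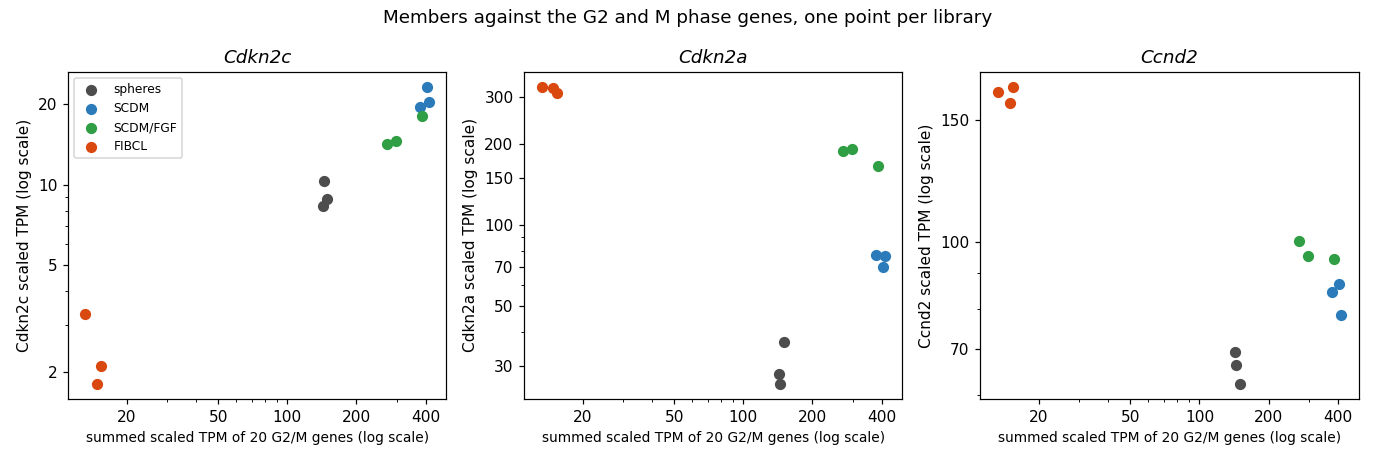
Scaled TPM of Cdkn2c, Cdkn2a and Ccnd2 (vertical axes) against the summed scaled TPM of 20 G2 and M phase genes (horizontal axes), both on log scales, with 1 point per library coloured by group. FIBCL libraries lie at the far left (13.2 to 15.5), where Cdkn2c is at 1.80 to 3.30 and Cdkn2a at 309 to 327.

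Genes that act on the members were counted in FIBCL against SCDM beside the 32.7% of all genes that rose and 39% that fell. Of 12 genes for turnover of cyclin D and p27, 4 rose and 7 fell (median -0.33), and the largest changes were in Cks1b (-1.69), Fbxo4 (-1.14) and Skp2 (-1.06), subunits or cofactors of the ubiquitin ligases for p27 and cyclin D1. Of 14 genes that set or remove polycomb silencing, which keeps the Cdkn2a/Cdkn2b locus off in many cells, 5 rose and 4 fell (median 0.11), shares near those of all genes. The list includes Kdm6b, which removes the polycomb mark and did not pass (0.13, adjusted p = 0.289, and -0.24 as deposited, adjusted p = 0.088). Jarid2, a cofactor of the PRC2 complex, was at 729 ± 146 TPM in FIBCL against 103 ± 4.73 in SCDM (2.80, adjusted p = 1.8e-08), Cbx7 rose by 1.47 and Cbx2 by 1.17, and Bmi1, a classical repressor of Cdkn2a, was lower at 22.7 against 37.5 TPM (-0.70, adjusted p = 7.13e-05, and -1.09 as deposited). As deposited the polycomb split was 3 higher and 7 lower (median -0.27). Of 8 genes of the ARF and p53 axis, 4 rose and 3 fell (median 0.32): the p53 targets Mdm2 (372 against 38.0 TPM, 3.26) and Ccng1 (1.52) rose and Trp53 itself fell (-1.04). This median is smaller than the 0.40 by which rescaling raised log2 differences in this comparison, so its sign depends on the scaling.

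Of 16 upstream regulators of D cyclin transcription, 6 rose and 6 fell in FIBCL against SCDM (median -0.08), against 5 and 10 as deposited. These counts are near the 32.7% of all genes that rose and 39% that fell, and the split as deposited leans to lower as that of all genes did. Myc, a target of BET proteins that binds E-boxes, was at 4.92 ± 1.12 TPM in FIBCL against 43.8 ± 1.50 in SCDM (-2.94, adjusted p = 7.91e-10), 50.4 in SCDM/FGF and 18.9 in spheres. The FGF-induced ETS factors Etv4 (34.4 against 6.62 TPM, 2.22) and Etv5 (54.8 against 15.8, 1.73) rose. They were also higher in SCDM/FGF than in SCDM, by 2.19 and 1.30, while Etv4 in FIBCL and SCDM/FGF differed by 0.04 (adjusted p = 0.808) and Etv5 was higher in FIBCL than in SCDM/FGF by 0.43 (adjusted p = 3.51e-06). As deposited neither passed, at -0.27 for Etv4 (adjusted p = 0.0859) and 0.12 for Etv5 (adjusted p = 0.0927). Rb1, Bmi1, Kdm6b and Cdkn1c fall outside the naming rule and were chosen after their values had been seen.

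For each member, the 2 other genes with the most similar course were taken from 8909 tested genes with a mean of at least 10 TPM, by Pearson r of log2(scaled TPM + 1) over the 12 libraries, which share 4 groups of 3, so the values describe group patterns only. Ccnd1 was most like Il1r1 (0.998) and Mcpt8 (0.994), and Mcpt8 was at 208 TPM in SCDM/FGF and at most 1.72 in the other groups. Ccnd2 was most like Nomo1 (0.995) and H2bc4 (0.991), and Ccnd3 like Kng1 (0.994) and Cdc42ep4 (0.993). Cdk4 was most like Tsc22d3 (0.9896) and Ppm1m (0.987), and Cdk6 like Psmd6 (0.966) and Mtpn (0.963). Cdkn1b was most like Matn4 (0.994) and Nup93 (0.992). Cdkn2a was most like Pf4 (0.993) and Hk2 (0.992), Cdkn2b like Elmo2 (0.988) and Dynlt1b (0.978), and Cdkn2d like Ggta1 (0.980) and Vegfa (0.973). Cdkn2c was most like Ccna2 (0.992), the cyclin A gene of S and G2 phase, and Rnf26 (0.989).

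Some members share exonic bases with genes on the opposite strand, and the study aligned reads in an orientation mode without stating whether counting used strand. Cdk4 shares 19.7% of its exonic bases with Tspan31, which rose in FIBCL (187 ± 5.35 against 104 ± 2.74 TPM in SCDM, 0.84 and, as deposited, 0.44) while Cdk4 fell. Ccnd1 shares 23.4% with LTO1, at 22.2 to 26.5 TPM on average in the 4 groups. Ccnd2 shares 3.95% with Gm43126, an antisense transcript that followed the same order of groups at 8.82 TPM in spheres, 17.4 under SCDM, 25.1 under SCDM/FGF and 59.3 under FIBCL, and 3.91% with 9330179D12Rik. Ccnd3 shares 4.11% with Bysl (7.32 to 11.2 TPM) and Cdk6 2.63% with Gm17590 (at most 0.112 TPM). The part of these overlaps in the members' values was not tested.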

How the data were processed

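Poly(A) RNA was sequenced in 12 libraries, 3 in each of 4 groups taken from the sample labels. The columns of FIBCL are headed FIBC in the table, which in the study can also mean the cocktail that lacks LIF. They were assigned to FIBCL because the labels hold no other such group. The authors used SeqPrep and Sickle to trim reads, TopHat to align them and RSEM for gene values (Cufflinks is also listed in the submitters' processing notes), with versions and genome build not given in the sources used here. The authors deposited TPM values with 2 decimals for 55487 genes. TPM keeps no depth, so read depth is unknown and no counting interval was computed. Genes above 0 numbered 21625 to 22281 per library.

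The study's count test needs counts, so limma 3.58.1 (R 4.3.3) was run on log2(scaled TPM + 1) with a mean-variance trend, in one model of the 4 groups without covariates, with Benjamini-Hochberg adjustment over 16016 genes that reached 1 TPM in 3 or more libraries. Libraries were brought to a common scale with a trimmed mean (30% off each end) of their log2 ratios to the average library, taken from 8434 genes at 5 TPM or more throughout. The procedure was tested on simulated data. Named genes were the 10 members, 2 similar genes for each and, in each pathway list, the 3 largest absolute log2 fold changes in FIBCL against SCDM. Neighbouring genes, overlapping genes and single marker genes were named as well, outside this rule. The members and lists were chosen with earlier results of these data known. Nothing in the labels states separate cultures beyond the word biological, so p-values measure the spread between these libraries. Positions come from GENCODE M21 (GRCm38), in which 55141 gene identifiers were found, and promoters from RefSeq (GRCm38.p6). Figures were drawn with matplotlib 3.10.9 in Python 3.11.15. Alternatives covered scaling, filters on low values, pseudocounts of 0.1 and 0.5, the trend, the groups in the model, the fold threshold, the replicate number as a block and each library left out.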

Additional observations from a re-analysis of the deposited data

How the results depend on the processing

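Of 900 member differences recomputed under single changes, 854 kept their direction and their side of the threshold, 38 lost the call, 3 gained one without a change of sign (Cdk4 and Cdkn2d in SCDM against spheres and Cdkn2b in SCDM/FGF against spheres, all as deposited) and 5 turned sign. On TPM as deposited the sign turned for Cdkn2d in FIBCL against SCDM (-0.18) and against spheres (-0.41, which passed only as deposited), for Cdkn2b in FIBCL against spheres (-0.23) and for Cdkn1b in SCDM against spheres (-0.033, which did not pass in either case). Without SCDM/FGF replicate 2 the difference of Cdkn2b between SCDM/FGF and spheres became 0.043, again not past the threshold (range over the libraries left out -0.091 to 0.043). The members called when a change of at least 1 on the log2 scale was also required numbered 4 in FIBCL against SCDM, 4 against SCDM/FGF, 5 against spheres, 2 in SCDM against spheres, 3 in SCDM/FGF against spheres and 3 in SCDM/FGF against SCDM, by the construction of that threshold. Leaving out each library in turn, the members called ranged from 10 to 10, 9 to 10, 9 to 9, 6 to 7, 9 to 9 and 8 to 10 in the same order, and the share differences of FIBCL from SCDM ranged from -13.5 to -12.8 points for Ccnd1, -3.22 to -2.80 for Cdk4 and -11.8 to -10.4 for Cdkn2c.

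Libraries with the same replicate number did not deviate together (18 pairs, r from -0.12 to 0.098), and 5 of 12 libraries correlated best with their own number. With the replicate number as a block, 10, 10, 9, 7, 9 and 8 members were called, where Cdk4 (-0.15, adjusted p = 0.0709) and Cdkn2c (-0.42, adjusted p = 0.078) in SCDM/FGF against SCDM no longer passed. The sign changes on TPM as deposited came with leaving out the rescaling alone. That step had raised log2 differences by about 0.40 in FIBCL against SCDM, 0.55 in FIBCL against spheres and 0.14 in SCDM against spheres. Which of the scales is nearer to the true levels was not tested. Depth is unknown for TPM values, so counting error could not be set beside the low members Cdk6 and Cdkn2c.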
